A study of Mus musculus with 4 samples.

Results

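The genes described here are 44 genes of mitosis and of the passage from G2 into mitosis, measured by RNA-Seq in tumor-infiltrating Tc1 and Tc9 cells. They were chosen by symbol from a list of well-known mitotic genes, without a threshold on any measured value, and are 44 of the 15981 genes listed in at least 1 of the 4 libraries. Tc1 and Tc9 cells are CD8+ T cells polarized in culture toward IFN-γ or IL-9 production. The T cells in all 4 libraries were Pmel-1 cells on the C57BL/6 background, CD8+ and marked by Thy1.1, whose transgenic receptor recognizes a melanoma antigen. Tc9 cells had been polarized with IL-4, TGF-β and an antibody against IFN-γ, Tc1 cells with recombinant human IL-2 in place of these agents. Both were then kept in medium with recombinant human IL-2, for 5 days of culture in all. Cells of either kind were transferred intravenously into Thy1.2+ B6 mice carrying 10-day-old subcutaneous B16 melanomas and were sorted from the tumors 14 days later, on day 24 after the tumor cells. In both groups the mice also received cyclophosphamide, dendritic cells and recombinant human IL-2 as adjuvant treatments, according to the paper. The paper's methods name 6 mice whose RNA was pooled into 2 samples per group. How many mice stand behind each library is not given, nor whether the pools came from separate cultures, so p-values measure only the spread between these pools.

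Cells enter mitosis when CDK1, bound to a B-type or A-type cyclin, is switched on by CDC25 phosphatases. Polo-like and Aurora kinases then build the spindle together with kinesin motors, condensins pack the chromosomes, and the BUB and MAD proteins of the spindle checkpoint hold back the anaphase-promoting complex until every kinetochore is attached. Transcripts of these genes accumulate in G2 and mitosis, which is why they are commonly used as a proliferation signature of activated T cells. Their promoters are known for CCAAT boxes, which bind the factor NF-Y, and for the cell cycle genes homology region (CHR), which binds the MuvB core of the DREAM complex, a repressor in resting cells, and of the B-MYB and FOXM1 complexes, activators in dividing cells.

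The promoter letters described here were common among these genes, though not present in all, and were not used to choose them. RefSeq promoter windows (build GRCm38.p6, from 250 bases before to 50 bases after a transcription start) were at hand for 37 of the 44 genes, in 40 windows, and the windows of *Ccna2*, *Cdc25c*, *Aurkb*, *Kif20a*, *Dlgap5*, *Tpx2* and *Smc4* were not analysed. Windows of 5 genes are shown in part because they belong to genes that differ in how they moved between Tc9 and Tc1 cells: *Cdk1*, *Bub1* and *Bub3*, which passed the test described later, and *Ccnb2* and *Cdc20*, which did not. Each is given as the 100 bases just before the start, 5′ to 3′ on the gene's own strand, with CCAAT and the CHR letters TTTGAA or TTCGAA in capitals on whichever strand they were found (ATTGG is CCAAT and TTCAAA is TTTGAA read from the opposite strand).
*Cdk1*, chr10:69352913-69353012, minus strand: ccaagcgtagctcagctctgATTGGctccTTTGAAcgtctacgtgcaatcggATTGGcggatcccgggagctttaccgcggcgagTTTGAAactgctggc
*Bub1*, chr2:127831860-127831959, minus strand: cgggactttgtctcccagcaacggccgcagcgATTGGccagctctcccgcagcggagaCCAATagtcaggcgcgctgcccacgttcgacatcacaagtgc
*Bub3*, chr7:131560270-131560369, plus strand: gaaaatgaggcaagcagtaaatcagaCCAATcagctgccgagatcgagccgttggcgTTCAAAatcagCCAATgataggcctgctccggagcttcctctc
*Ccnb2*, chr9:70421555-70421654, minus strand: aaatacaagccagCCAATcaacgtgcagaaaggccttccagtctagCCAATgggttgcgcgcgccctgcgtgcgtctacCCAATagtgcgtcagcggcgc
*Cdc20*, chr4:118437344-118437443, minus strand: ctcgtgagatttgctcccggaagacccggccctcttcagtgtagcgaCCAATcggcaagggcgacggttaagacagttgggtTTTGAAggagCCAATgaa

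All 5 stretches hold at least a pair of CCAAT matches, and those of *Cdk1*, *Bub3* and *Cdc20* also hold CHR letters. The CHR letters of *Bub1* and *Ccnb2* lie elsewhere in their windows. Over the 40 windows, in which *Bub3*, *Ect2* and *Prc1* have 2 overlapping windows each, CCAAT was found on either strand in 33 (82.5%), beside 37.4% of all 32851 RefSeq windows, and CHR letters in 32 (80%) beside 19.2%. Both were present in 30 of 40 windows (75.0%), beside 7.52% of all windows. With 1 window for each gene, 27 of the 37 genes had both. For a list of G1/S genes (DNA replication and entry into S phase) the share of windows with CCAAT was 53.3% and that with CHR letters 16.7%, and for a list of further mitosis genes the shares were 52.8% and 42.3%, with both in 26.0%. In that set of 1 window for each gene, the 65 CCAAT matches had their first base at a median of 74 bases before the start (position -74), and 27 of the 40 CHR matches began between 50 bases before and 49 bases after it. No CHR match shared letters with a CCAAT match. *Birc5*, *Mad2l1*, *Ncaph*, *Nusap1* and *Pttg1* had neither within their windows. A match of letters is a description and not a measured binding site.

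**Figure D1:**
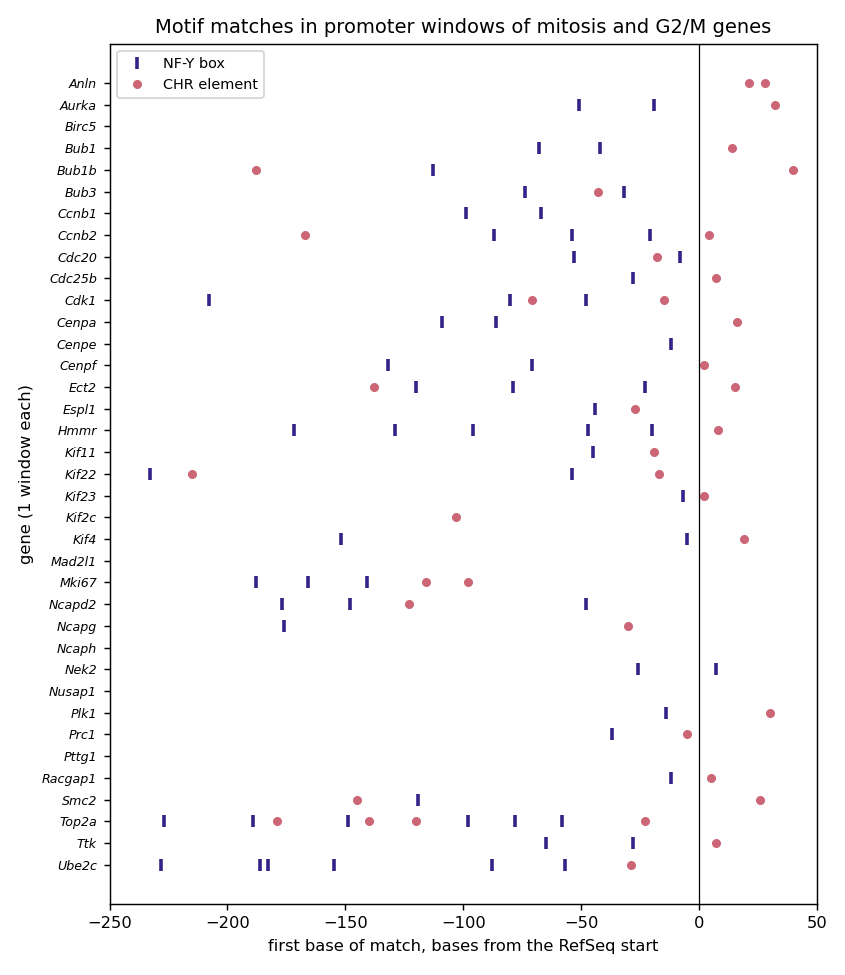
Position of CCAAT (NF-Y box, bars) and TTTGAA or TTCGAA (CHR, points) in the promoter windows of 37 mitosis and G2/M genes, 1 window for each gene, with the first base of each match on the x axis in bases from the RefSeq start. NF-Y boxes gather before the start, with a median at -74, and CHR matches sit near the start, with a median at -17.5.

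The number of libraries behind a gene differed among these 44 genes. Each library's table lists genes in the character order of their identifiers and reaches a different point, with 1535 and 7408 genes for Tc1 replicates 1 and 2 and 3152 and 15442 for Tc9 replicates 1 and 2. As a result 14 of the 44 genes were covered by all 4 libraries, 7 by Tc1 replicate 2 and both Tc9 libraries, 12 by the replicate 2 libraries alone and 11 by Tc9 replicate 2 alone. Levels are given as CPM, here estimated counts scaled to a common library depth with TMM factors, and depths were 30822953 to 31927162 counts. At these depths a count of 3 corresponds to 0.0952 to 0.0956 CPM, which is far below the level of each of the 44 genes.

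T cell transcripts summed to like levels in the replicate 2 libraries, while single markers differed in either direction. The 11 T cell markers summed to 4498 CPM in Tc1 replicate 2 and 4427 CPM in Tc9 replicate 2. Between these libraries *Cd3e* went from 2758 to 5743 counts and *Cd3g* from 7588 to 9467. *Cd2* went from 9246 to 6448 counts and *Cd5* from 3753 to 2585. *Il9* had 3 counts in Tc1 replicate 2 against 2601 and 2667 in the Tc9 libraries. Of 10 melanoma markers 4 were listed, with a sum of 2.64 CPM in Tc1 replicate 2 and 4.46 CPM in Tc9 replicate 2, led by *Pmel* at 70.0 and 117 counts, and *Mlana*, *Dct*, *Tyrp1* and *Sox10* were not listed. The 11 myeloid markers listed summed to 61.0 and 56.2 CPM, mostly from *Cst3*, with *Lyz2* and *C1qa* at 0 in both of these libraries. The 4 of them covered by all 4 libraries summed to 7.23 and 7.10 CPM in Tc1 and 11.4 and 14.1 CPM in Tc9, nearly all from *Cd68*, whose counts were 226 and 221 for Tc1 and 358 and 439 for Tc9. The 5 B cell markers listed summed to 5.48 CPM in Tc1 replicate 2 and 15.6 CPM in Tc9 replicate 2, mostly from *Cd79b*. *Cd4*, *Foxp3* and *Cd40lg* summed to 2.90 and 52.7 CPM in these libraries, the higher sum mostly from *Foxp3*, at 34.6 and 1592 counts. From Tc1 replicate 2 to Tc9 replicate 2, *Cd4* went from 45 to 58 counts and *Cd40lg* from 11 to 2. In the replicate 1 libraries *Cd4* stood at 50 (Tc1) and 56 (Tc9). The part of these differences in the results was not tested.

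Among the 14 genes covered by all 4 libraries, 5 fell in Tc9 compared with Tc1 cells, 1 rose and 8 did not pass the test (edgeR's quasi-likelihood test, adjusted p under 0.05, Benjamini-Hochberg over all 1284 genes tested). The genes that fell were *Cdk1*, *Ccna2*, *Cdc25c*, *Bub1* and *Bub3*, and the gene that rose was *Cdc25b*. Of all genes tested, 16.7% were called lower and 17.4% higher. The log2 fold change was negative in 13 of the 14 genes, with a median of -0.25, where the median over all genes tested was 0.00. In 10 of the 14 genes both Tc9 libraries lay below both Tc1 libraries, compared with 35.7% of all genes tested, in 1 gene both lay above (34.7% of all genes), and in 3 the groups overlapped (29.6% of all genes). The 5 genes that fell lay between 23.7% and 28.0% below Tc1, as the ratio of the group means. For 1 gene alone, 2 libraries against 2 allow no exact permutation p under 0.333, so these calls rest on the spread shared across genes. In RNA from a sorted population, fewer cells in G2 or mitosis and less of a transcript in each such cell cannot be told apart.

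**Figure D2:**
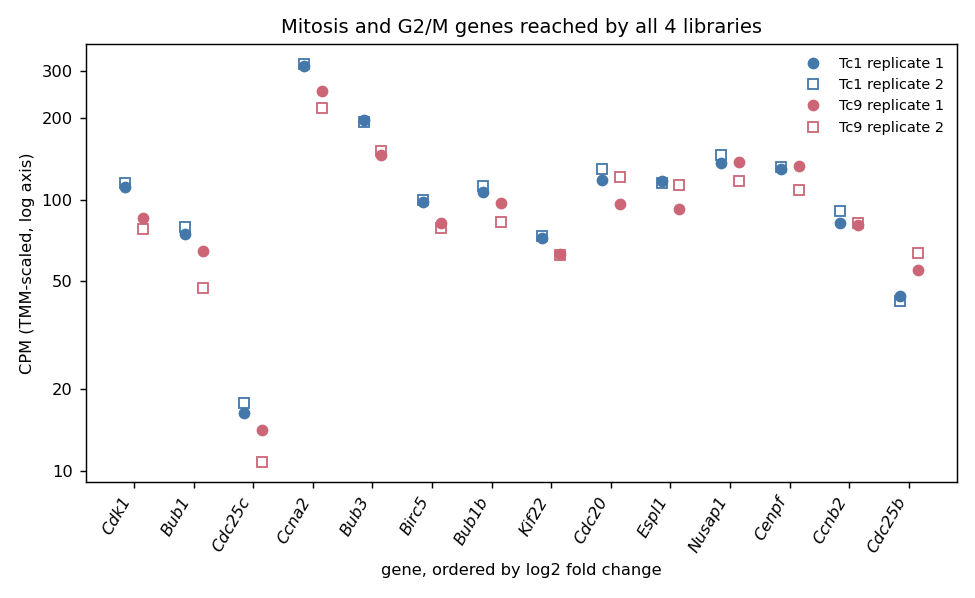
Level of the 14 mitosis and G2/M genes covered by all 4 libraries, in CPM on a log axis, with 1 point for each of the Tc1 and Tc9 libraries. For *Cdk1* the Tc1 points are 112 and 116 CPM and the Tc9 points 85.6 and 78.3 CPM, while for *Cdc25b* the Tc9 points are the higher ones.

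*Cdk1*, the kinase whose activity defines mitosis, had 112 and 116 CPM in the Tc1 libraries and 85.6 and 78.3 CPM in the Tc9 libraries. Its log2 fold change was -0.47 with a standard error of 0.11 (edgeR, adjusted p = 0.00994), and the groups did not overlap. *Ccna2* encodes cyclin A2, which partners CDK2 in S phase and CDK1 in G2. It had 311 and 318 CPM in Tc1 and 252 and 218 CPM in Tc9, a fall of 25.2% in the group mean (log2 fold change -0.42, standard error 0.11, edgeR adjusted p = 0.0173). This call was lost with no filter on low counts (edgeR adjusted p = 0.0561). Part of the reads of *Ccna2* had been shared between genes by estimation in all 4 libraries, since its counts were not whole, which leaves its level less certain than that of *Cdk1*. The same holds, in some or all of the libraries that cover them, for *Cenpf*, *Nusap1*, *Mki67*, *Hmmr*, *Ccnb1*, *Kif20a* and *Ncapg*, 8 genes in all.

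The CDC25 phosphatases, which remove the inhibitory phosphates from CDK1, moved in opposite directions. *Cdc25c* had 16.3 and 17.8 CPM in Tc1 and 14.1 and 10.8 CPM in Tc9 (log2 fold change -0.46, standard error 0.15, edgeR adjusted p = 0.0438). It was the least abundant of the 14 genes, and its call was lost with depth scaling alone, with no filter on low counts, in DESeq2 and on the FPKM scale. *Cdc25b*, the family member that acts at the centrosome early in mitotic entry, had 44.1 and 42.5 CPM in Tc1 and 55.2 and 63.5 CPM in Tc9. Its log2 fold change was 0.45 with a standard error of 0.12 (edgeR, adjusted p = 0.0163), and it was the single gene of the 14 that was higher in both Tc9 libraries. *Ccnb2*, which encodes a B-type cyclin of the Golgi region, had 82.4 and 91.3 CPM in Tc1 and 81.0 and 82.1 CPM in Tc9. The Tc9 libraries lay just below the lower Tc1 library, and the log2 fold change of -0.09 (standard error 0.11) did not pass the test (edgeR adjusted p = 0.559). Summed over these 5 genes, the levels were 566 and 585 CPM in Tc1 and 488 and 453 CPM in Tc9.

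The 3 spindle checkpoint genes covered by all 4 libraries summed to 379 and 386 CPM in Tc1 and 309 and 282 CPM in Tc9, a ratio of 0.772. *Bub3*, a checkpoint scaffold that carries BUB1 and BUBR1 to kinetochores, had 197 and 195 CPM in Tc1 and 147 and 152 CPM in Tc9. Its replicates were close in both groups, and its log2 fold change was -0.39 with a standard error of 0.10 (edgeR, adjusted p = 0.0173). *Bub1*, the kinetochore kinase of the checkpoint, had 74.8 and 79.1 CPM in Tc1 and 64.8 and 47.2 CPM in Tc9. The Tc9 libraries of *Bub1* lay farther apart than those of any other gene of the 21 covered by both, 0.46 on the log2 scale. Its log2 fold change was -0.46 with a standard error of 0.15 (edgeR, adjusted p = 0.0422), and the call was lost with depth scaling alone, with no filter and on the FPKM scale. *Bub1b*, which encodes BUBR1, a subunit of the complex that inhibits anaphase, had 107 and 113 CPM in Tc1 and 97.3 and 82.8 CPM in Tc9. Both Tc9 libraries were lower, but the log2 fold change of -0.29 (standard error 0.12) missed the threshold (edgeR adjusted p = 0.0922).

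**Figure D3:**
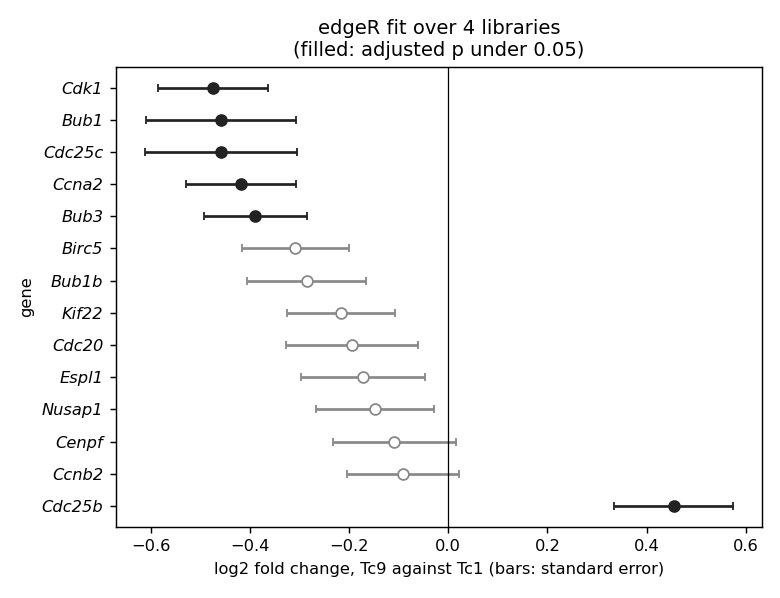
Log2 fold change of Tc9 against Tc1 cells for the 14 genes covered by all 4 libraries, with bars of 1 standard error from the edgeR fit and filled points for an adjusted p under 0.05. Of the 14 points 13 lie left of 0, from *Cdk1* at -0.47 to *Ccnb2* at -0.09, and *Cdc25b* lies at 0.45.

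The remaining 6 of the 14 genes, of the anaphase machinery, the centromere and the spindle, did not pass the test. *Birc5* encodes survivin, the subunit that takes the Aurora B complex to centromeres. It had 98.4 and 100.1 CPM in Tc1 and 81.8 and 78.5 CPM in Tc9, so that the groups were well separated at a log2 fold change of -0.31 (standard error 0.11, edgeR adjusted p = 0.0524). *Kif22*, a chromosome-arm motor, had 72.5 and 73.6 CPM in Tc1 and 63.2 and 62.6 CPM in Tc9 (log2 fold change -0.22, standard error 0.11, edgeR adjusted p = 0.148). In these 2 genes both Tc9 libraries were lower, by 19.2% and 13.9% in the group mean.

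*Cdc20*, the activator of the anaphase-promoting complex at the end of the checkpoint, had 119 and 130.1 CPM in Tc1 and 96.3 and 121 CPM in Tc9. The higher Tc9 library lay between the Tc1 libraries, and the log2 fold change was -0.19 (standard error 0.13, edgeR adjusted p = 0.283). *Espl1* encodes separase, the protease that cleaves cohesin at anaphase. It had 117 and 115 CPM in Tc1 and 92.7 and 114 CPM in Tc9, with a log2 fold change of -0.17 (standard error 0.13, edgeR adjusted p = 0.313). For both anaphase genes Tc9 replicate 1 was the low library and Tc9 replicate 2 lay near Tc1. *Nusap1*, a microtubule-binding spindle protein, had 137 and 146 CPM in Tc1 and 138 and 118 CPM in Tc9 (log2 fold change -0.15, standard error 0.12, edgeR adjusted p = 0.361). *Cenpf*, an outer kinetochore protein of G2 and mitosis, had 129 and 132 CPM in Tc1 and 133 and 109 CPM in Tc9 (log2 fold change -0.11, standard error 0.12, edgeR adjusted p = 0.526). Here the order of the Tc9 libraries was the reverse, replicate 2 being the low one, and both genes overlapped between the groups.

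Summed over the 14 genes, the level was 1618 and 1668 CPM in the Tc1 libraries and 1403 and 1337 CPM in the Tc9 libraries, a ratio of the group means of 0.834. The calls depended on which libraries entered the fit. When edgeR was run without either Tc1 library, 0 of the 14 genes were called lower and 0 higher, with 3 at an unadjusted p under 0.05 without Tc1 replicate 1 and 0 without Tc1 replicate 2. In those fits 6.15% and 5.62% of all genes were called lower. Without either Tc9 library 10 were called lower and 1 higher, because the remaining pair then sets the spread, and the Tc1 pair was tighter (a 95th percentile of the absolute log2 ratio between replicates of 0.17 among genes with 500 counts) than the Tc9 pair (0.51). Of all genes, 32.8% were called lower without Tc9 replicate 1 and 28.4% without Tc9 replicate 2. The direction depended less on this: 12 or 13 of the 14 log2 fold changes were negative under each of these 4 fits.

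A further 7 genes were covered by Tc1 replicate 2 and both Tc9 libraries. In 6 of these 7 genes both Tc9 libraries lay below the Tc1 library, and over all 21 genes that these 3 libraries cover this was so in 18, compared with 37.9% of the 2629 genes covered with at least 10 counts in a library. The median log2 ratio of the Tc9 mean to Tc1 replicate 2 was -0.30 over the 21 genes and 0.04 over all genes. With a single Tc1 library there is no replicate check on that side and no p-value is given.

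*Cenpa*, which encodes the histone H3 variant that marks centromeres, had 94.2 CPM in Tc1 replicate 2 and 76.1 and 72.4 CPM in the Tc9 libraries. *Kif11*, the motor that pushes spindle poles apart, had 250.4 CPM in Tc1 and 226 and 184 CPM in Tc9. *Ect2*, the exchange factor that turns on RhoA at the cleavage site, had 59.4 CPM in Tc1 and 51.0 and 43.5 CPM in Tc9. These 3 genes had log2 ratios of -0.34, -0.30 and -0.33, and the Tc9 libraries of *Cenpa* lay closest together. *Hmmr*, a spindle assembly factor, had 115 CPM in Tc1 and 103 and 80.1 CPM in Tc9, from counts that were not whole in any of the 3 libraries. *Smc2*, an ATPase core subunit of condensin, had 225 CPM in Tc1 and 214 and 167 CPM in Tc9. *Kif4*, a chromokinesin, had 99.3 CPM in Tc1 and 91.2 and 84.3 CPM in Tc9. For *Hmmr* and *Smc2* most of the difference came from Tc9 replicate 2. *Mki67*, which encodes the proliferation marker Ki-67 that coats mitotic chromosomes, had 1283 CPM in Tc1 and 1286 and 1201 CPM in Tc9. It was the most abundant of the 21 genes on the CPM scale and the 1 of the 7 in which a Tc9 library lay above Tc1, with a log2 ratio of -0.05 for the Tc9 mean.

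The 2 Tc9 libraries did not lie equally far below Tc1 replicate 2. Tc9 replicate 1 was lower in 18 of the 21 genes with a median log2 ratio of -0.22, and Tc9 replicate 2 was lower in 20 of 21 with a median of -0.36. Against Tc9 replicate 1, replicate 2 was lower in 16 of the 21 genes, with a median of -0.13, where 48.6% of all 2588 genes were lower. In the median, Tc9 replicate 2 alone therefore lay further from Tc1 than the mean of both Tc9 libraries, while *Cdc20*, *Espl1*, *Bub3*, *Ccnb2* and *Cdc25b* were lower in Tc9 replicate 1.

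The replicate 2 libraries together cover 33 of the 44 genes. Of these, 32 (97.0%) were lower in Tc9 replicate 2 than in Tc1 replicate 2, compared with 47.6% of the 6226 genes with at least 10 counts in either library and 50.9% of the 3977 with at least 500. The median log2 ratio was -0.43, beside 0.03 over all genes. Of the 33 genes 4 (12.1%) were lower by over 1.5-fold, compared with 13.1% of all genes and 10.3% of those with at least 500 counts, and 0 were higher by over 1.5-fold, compared with 21.2% of all genes and 14.4% of those with at least 500 counts. So the share past that fold was close to the background on the lower side and below it on the higher side. At a smaller cut of 0.51 on the log2 scale, the 95th percentile of the absolute ratio between the Tc9 libraries among genes with 500 counts, 10 of the 33 (30.3%) were lower, compared with 16.2% of all genes and 14.0% of those with at least 500 counts. The 19 genes outside the 4-library range were all lower, with a median of -0.45.

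**Figure D4:**
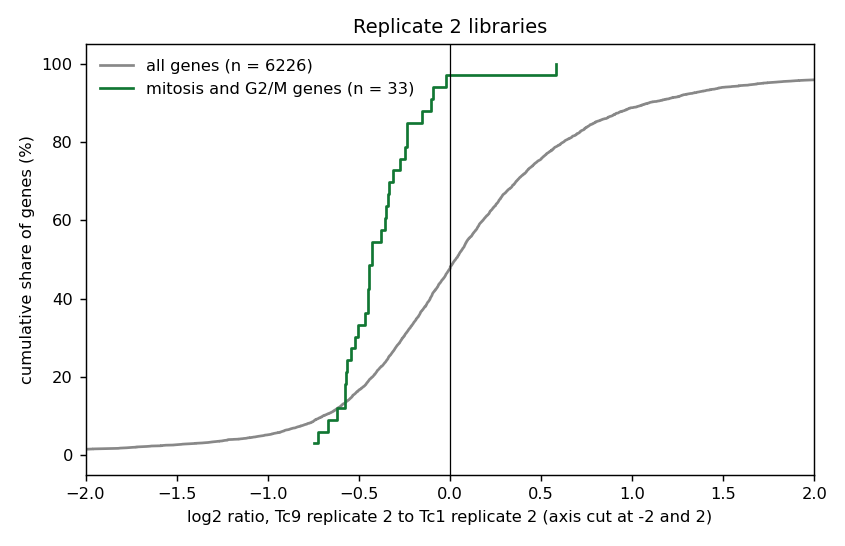
Cumulative share in percent of the 33 mitosis and G2/M genes and of all 6226 genes by log2 ratio of Tc9 replicate 2 to Tc1 replicate 2. The curve of the 33 genes is steep and left of 0, with a median of -0.43 and 97.0% of genes below 0, while the curve of all genes is broad, with 47.6% below 0.

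Among the mitotic kinases, *Nek2*, a centrosome kinase that separates the spindle poles, had 42.0 CPM in Tc1 and 26.4 CPM in Tc9 (log2 ratio -0.67, 95% interval -0.80 to -0.55). *Aurka*, which encodes the Aurora kinase of the spindle poles, had 129.6 CPM in Tc1 and 87.0 CPM in Tc9 (log2 ratio -0.57, interval -0.65 to -0.50). *Ttk*, the checkpoint kinase MPS1, had 36.8 and 29.1 CPM (log2 ratio -0.34). All 5 kinases were lower in Tc9 replicate 2. *Plk1*, the polo-like kinase of mitotic entry and spindle assembly, had 139 and 111 CPM (log2 ratio -0.33), and *Aurkb*, the kinase of the chromosomal passenger complex, had 102 and 86.1 CPM (log2 ratio -0.25). The interval of *Aurkb* was -0.32 to -0.17. These intervals, like the others in this comparison, cover counting error only.

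Among the cyclins, *Ccnb1*, the main cyclin partner of CDK1 in mitosis, had 187 CPM in Tc1 replicate 2 and 136 CPM in Tc9 replicate 2 (log2 ratio -0.47, interval -0.52 to -0.41). Its counts were not whole, so that some of its reads had been shared with other genes. The same libraries gave -0.15 for *Ccnb2* (interval -0.23 to -0.08), and the gap between these cyclins was smaller than the 0.51 given for the spread between the Tc9 libraries. Of the kinetochore genes, *Cenpe*, a motor that captures microtubules, had 140.2 and 91.4 CPM (log2 ratio -0.62, interval -0.69 to -0.55). *Cenpa* gave -0.38 and *Cenpf* -0.28 in the same libraries.

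Among the genes of chromosome structure, *Ncaph*, the kleisin subunit of condensin I, had 82.6 CPM in Tc1 and 55.5 CPM in Tc9 (log2 ratio -0.57, interval -0.66 to -0.49). *Top2a*, the topoisomerase that untangles sister chromatids, had 817 and 606 CPM (log2 ratio -0.43, interval -0.46 to -0.40). The condensin subunit *Smc2* gave -0.43 in these libraries. *Mki67* lay apart from these at -0.10 (interval -0.12 to -0.08), and the ratios of *Top2a* and *Mki67* were both smaller in size than the 0.51 given for the spread between the Tc9 libraries. Of the spindle genes, *Dlgap5*, a microtubule-stabilizing protein, had 106 and 71.1 CPM (log2 ratio -0.57), and *Kif20a*, a motor of the central spindle, had 151 and 111 CPM (log2 ratio -0.45, from counts that were not whole). *Prc1*, which bundles the microtubules of the central spindle in cytokinesis, had 152 and 107 CPM (log2 ratio -0.50). In the same comparison *Espl1* (-0.02, interval -0.09 to 0.05), *Mki67* and *Cdc20* (-0.10, interval -0.17 to -0.04) were the 3 genes closest to no difference. Tc9 replicate 1 was lower than replicate 2 for both anaphase genes.

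By role, the median log2 ratio in the replicate 2 libraries was -0.50 for the 6 genes of mitotic cyclins, *Cdk1* and its phosphatases, -0.48 for the 2 cytokinesis genes, -0.45 for the 7 motors and spindle assembly genes and -0.44 for the 3 checkpoint genes. It was -0.43 for the 4 condensin and chromosome structure genes, -0.36 for the 4 centromere and kinetochore genes, -0.34 for the 5 kinases and -0.06 for the 2 anaphase regulators. This order rests on 1 Tc9 library: against Tc1 replicate 2, Tc9 replicate 1 gave -0.43 for *Cdc20* and -0.31 for *Espl1*. Over all 4 libraries the ratio of summed levels was 0.881 for these anaphase regulators, 0.876 for the 2 centromere genes and 0.889 for the 2 spindle genes. *Cdc25b* was the 1 gene of the 33 that was higher in Tc9, at 42.5 and 63.5 CPM (log2 ratio 0.58, interval 0.48 to 0.68), just under 1.5-fold.

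The remaining 11 genes were covered by Tc9 replicate 2 alone and could not be compared between groups. Their levels are given as FPKM, which is scaled by gene length and so can be set between genes. *Ube2c*, the ubiquitin-conjugating enzyme of the anaphase-promoting complex, was the highest of all 44 genes at 284 FPKM, above *Mki67* at 122 and *Top2a* at 120.3 FPKM. *Ncapd2*, a condensin I subunit, stood at 79.5 FPKM, *Mad2l1*, the checkpoint protein MAD2, at 69.1 FPKM and *Racgap1*, a centralspindlin subunit, at 68.4 FPKM. *Tpx2*, the activator of Aurora A on the spindle, stood at 58.2 FPKM and *Smc4*, an ATPase core subunit of condensin, at 43.4 FPKM. These 6 genes lay among the upper 18 of the 44. *Kif23*, the motor subunit of centralspindlin, had 28.1 FPKM, *Pttg1*, which encodes the separase inhibitor securin, 22.1 FPKM and *Kif2c*, a microtubule-depolymerizing kinesin, 18.7 FPKM. *Ncapg*, a condensin I subunit, had 15.01 FPKM, and *Anln*, the actin-binding scaffold anillin of the cleavage furrow, was the lowest of the 44 genes at 5.18 FPKM.

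Across the 44 genes the levels in Tc9 replicate 2 spanned 54.7-fold, with a median of 33.2 FPKM. All 44 lay above 5.09 FPKM, the median of the 15442 genes listed in that library, and the median gene lay at percentile 83.6. Roles were mixed along this order: the condensin genes ran from *Ncapg* at 15.01 to *Ncapd2* at 79.5 FPKM, and the anaphase regulators from *Espl1* at 17.7 to *Ube2c* at 284 FPKM. *Cdc25c* (6.07 FPKM) and *Nek2* (8.73 FPKM), which had 2 of the larger negative ratios, were among the lowest 3 genes with *Anln*. Neighbours in this order were not tested, since 1 library gives no spread.

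**Figure D5:**
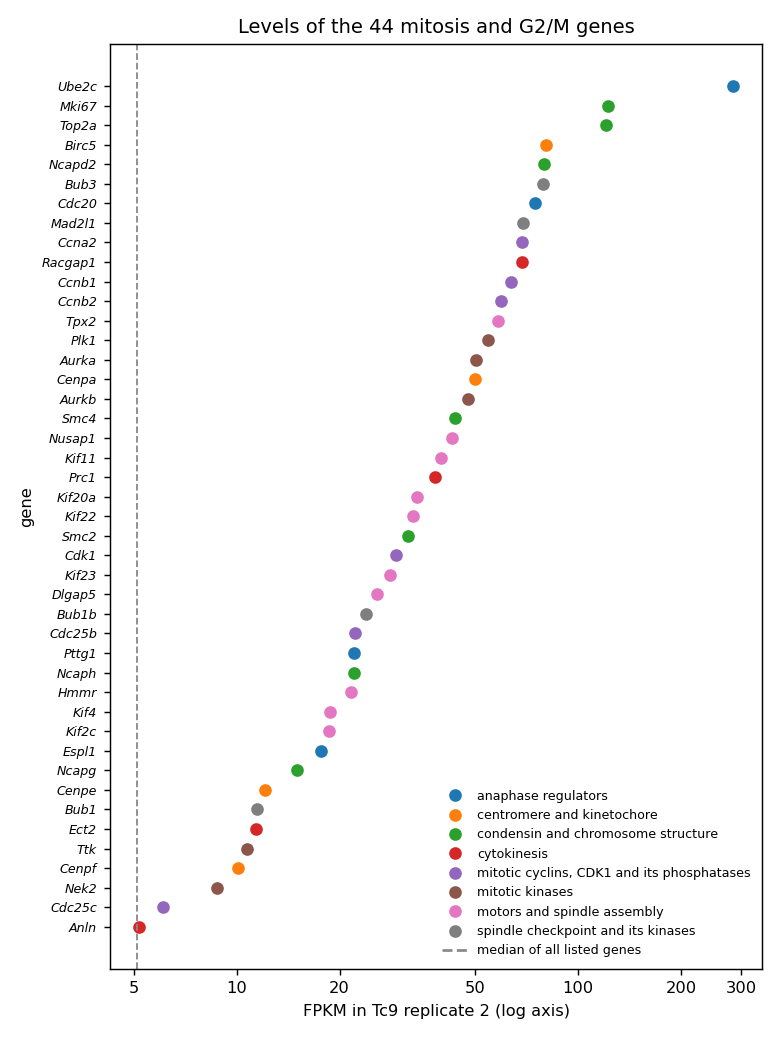
Level of the 44 mitosis and G2/M genes in Tc9 replicate 2, in FPKM on a log axis, ordered from the highest to the lowest, with colors for the 8 roles and a dashed line at the median of all listed genes. *Ube2c* is highest at 284 FPKM, *Anln* lowest at 5.18 FPKM, and every gene lies above the median of 5.09 FPKM of all genes listed in that library.

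Other genes of mitosis and its control were also lower more often than higher. Of 134 such genes listed in any library, 11 were tested in all 4 libraries. In Tc9 cells 3 of these fell, 0 rose and 8 did not pass the test, with a median log2 fold change of -0.28. Over all genes tested, 16.7% were called lower and 17.4% higher. Of the genes higher in Tc9, 0 had an unadjusted p under 0.05 in edgeR, and DESeq2 called 0. When edgeR was run without either Tc1 library it called 0 of the 11 lower (1 or 2 at an unadjusted p under 0.05), and without either Tc9 library 7 lower, with 2 higher without Tc9 replicate 1 and 1 higher without Tc9 replicate 2. *Cenpi*, an inner kinetochore protein, had 46.6 and 46.5 CPM in Tc1 and 32.4 and 28.4 CPM in Tc9 (log2 fold change -0.62, edgeR adjusted p = 0.00387). *Cdca2*, which targets a phosphatase to chromosomes at mitotic exit, had 67.0 and 68.7 CPM in Tc1 and 52.7 and 46.9 CPM in Tc9 (log2 fold change -0.44, edgeR adjusted p = 0.0159). The third gene called was *E2f8*, a repressor of E2F targets (log2 fold change -0.43, edgeR adjusted p = 0.0193). In the replicate 2 libraries 41 of 52 such genes were lower in Tc9, compared with 47.6% of all genes, and their median log2 ratio was -0.28. Transcriptional activators of the G2/M program belong to this list. *Mybl2*, which encodes B-MYB, had 107 CPM in Tc1 replicate 2 and 88.3 CPM in Tc9 replicate 2, a log2 ratio of -0.27. *Foxm1* had 121 CPM in Tc1 replicate 2 and 122 and 172 CPM in Tc9 replicates 1 and 2, so that it was level with Tc1 in one Tc9 library and higher in the other while 18 of the 21 genes covered by these 3 libraries were lower in both.

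Lower values were also found among genes of the G1/S transition. Of 13 G1/S genes tested in all 4 libraries 6 fell in Tc9 cells, 1 rose and 6 did not pass the test, with a median log2 fold change of -0.28, where 16.7% of all genes were called lower. In edgeR without either Tc1 library 1 was called lower and 0 higher (1 or 0 higher at an unadjusted p under 0.05), and without Tc9 replicate 1 or 2 it was 9 or 10 lower and 1 higher. The 2 lowest were *Ccnd2*, the G1 cyclin D2 (log2 fold change -0.63, edgeR adjusted p = 0.00178), and *Ccne2*, the cyclin E2 of S phase entry (log2 fold change -0.60, edgeR adjusted p = 0.0105, and 0.0575 with no filter), and the gene that rose was *Cdk6*, a kinase partner of D-type cyclins (log2 fold change 0.43, edgeR adjusted p = 0.00760). In the replicate 2 libraries 40 of 45 G1/S genes were lower in Tc9, with a median of -0.41, beside 32 of 33 and -0.43 for the mitosis and G2/M genes. Inhibitors of the cell cycle were the last list. Of 9 tested in all 4 libraries 3 fell, 0 rose and 6 did not pass the test, with a median log2 fold change of -0.07. Over all genes tested, 16.7% were called lower and 17.4% higher. At an unadjusted p under 0.05, 1 of the 9 was higher in edgeR. The calls of this list depended on the setting: DESeq2 called 2 lower and 0 higher, limma on log2(FPKM + 0.1) 2 lower and 1 higher, edgeR with no filter 0 lower and 0 higher, and edgeR without Tc9 replicate 1 or 2 called 4 lower and 1 or 2 higher. Without Tc1 replicate 1 it called 1 lower, and without Tc1 replicate 2 it called 0. *Cdkn1a*, which encodes the CDK inhibitor p21, had 178 and 167 CPM in Tc1 and 109 and 136 CPM in Tc9 (log2 fold change -0.49, edgeR adjusted p = 0.0163), a call that was lost with no filter (edgeR adjusted p = 0.0671). *Cdkn1b*, which encodes p27, had 21.2 CPM in each Tc1 library and 28.0 and 19.7 CPM in the Tc9 libraries, which overlapped (log2 fold change 0.17, edgeR adjusted p = 0.449).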

How the data were processed

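RNA-Seq was analysed for 2 Tc1 and 2 Tc9 libraries, grouped by their titles. Per the file headers, the authors deposited an expected count for each gene, estimated from reads and not normalized, with a gene length. They also deposited FPKM values, which the authors scaled by gene length and library size. The submitters' processing notes name build mm10, and the aligner and counter are not given in the sources used here. The mitosis genes and the other lists (further mitosis genes, G1/S genes, cell cycle inhibitors and cell type markers) were chosen with earlier results of these data known. Genes missing inside the span of a table counted as 0, and 1 incomplete row was dropped. Depth was the total of the Tc9 replicate 2 table, and for the other libraries that total times their ratio of count over FPKM to it. Counts were rounded and tested with the quasi-likelihood test of edgeR 4.0.16 (R 4.3.3, TMM, filterByExpr at 10, two-sided). TMM factors of 0.983 to 1.02 were applied to every range. Ratios between the replicate 2 libraries used counts with 0.5 added and exact binomial intervals. Every mitosis gene was named, and of other lists at most the 2 lowest and 2 highest calls, with *Foxm1*, *Mybl2*, *Cdkn1a* and *Cdkn1b*. *E2f8* was named because its list had few calls. *Il9*, single T cell markers and the marker genes of other cells were named after their values were seen.

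DESeq2 1.42.0, limma 3.58.1 on log2(FPKM + 1) and log2(FPKM + 0.1), other scalings and filters, and leaving out each library were alternatives. In simulated libraries of 1275 genes, 200 of them changed, 62.7% of changes of 0.5 on the log2 scale and 92.5% of changes of 1 were recovered, with 5 false calls among 174. The simulation gave both groups the same spread, unlike the measured Tc1 and Tc9 pairs, so these figures cannot be carried over to the calls above. Replicates differed beyond sampling noise (chi-square per gene 4.47 within Tc1 and 41.9 within Tc9), and each library was counted as a sample. This check cannot tell whether the pools came from separate cultures.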

Additional observations from a re-analysis of the deposited data

How the results depend on the processing

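Of the 14 mitosis and G2/M genes in all 4 libraries, 3 were called lower with depth scaling alone (14.3% of all genes), 2 with no filter on low counts (8.29% of all genes), and 3 with limma on log2(FPKM + 1) or on log2(FPKM + 0.1) (14.4% and 15.03% of all genes), compared with 5 in the fit reported and 4 in DESeq2 (13.8%); 1 was called higher under each of these. The cause was not tested, except that no filter enlarges the number of genes tested. Depth scaling moved the share of all calls that were lower from 48.9% to 42.4%, and the all-gene median by 0.04. Leaving out 1 library at a time gave 0 to 10 mitosis genes lower and 0 to 1 higher, 0 to 7 other mitosis genes lower and 0 to 2 higher, and 1 to 10 G1/S genes lower and 0 to 1 higher, with a median of the 14 genes from -0.30 to -0.22. In these fits the lone library was assumed to vary like the pair of the other group. The fewest were called without either Tc1 library and the most without either Tc9 library, and over all genes 173 to 854 were called. The median ratio in the replicate 2 libraries was -0.34 with the mean of both Tc9 libraries for the 21 of 33 genes that both cover, the other 12 resting on Tc9 replicate 2, and -0.22 over 21 genes with Tc9 replicate 1 in place of replicate 2, the latter chosen after seeing the data. A fit with the replicate number as a block left 5 mitosis genes lower and 1 higher and changed no call among the 14; nothing says that equal numbers share mice, and deviations of equal numbers correlated at -0.07. No direction turned in any setting for a gene called in the fit reported. Outside the 4-library range no replicate of Tc1 is at hand, and 11 genes have a single library.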
